A study of Homo sapiens with 6 samples.

Results

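The 53 genes described here form the NRF2, glutathione and antioxidant defence group. They were chosen by symbol from the 60504 genes of the count table of SK-MEL-28, an established human melanoma cell line. RNA-seq was carried out on 3 libraries labelled EV, from cells that received the empty plasmid, and on 3 libraries labelled HDAC8, from cells that received a plasmid for the histone deacetylase HDAC8. The cells of both groups were transfected with a lipid reagent and kept in hygromycin, and no other treatment was named. Whether a line was a clone or a pool of transfected cells was not stated. No source said that the 3 libraries of a group came from separate cultures, so the p-values measure the spread between these libraries, which may be technical.

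NRF2, encoded by NFE2L2, is a transcription factor that the adaptor KEAP1 holds in the cytoplasm and marks for degradation. Oxidants and electrophiles block KEAP1, and NRF2 then binds antioxidant response elements beside genes for glutathione synthesis, thioredoxin reduction, NADPH supply and detoxification. Glutathione, made from cysteine, glutamate and glycine, is the electron donor for glutathione peroxidases and is joined to electrophiles by glutathione transferases. Thioredoxin serves peroxiredoxins in the same way, and both systems draw on NADPH. Iron and peroxidised membrane lipids drive ferroptosis, a form of cell death that GPX4 opposes. In pigment cells, melanin synthesis is itself a source of oxidants.

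HDAC8, the introduced gene, was measured at 16.6, 15.2 and 11.8 CPM (counts relative to the TMM-scaled library size) in the libraries labelled EV and at 14.2, 15.2 and 13.5 CPM in those labelled HDAC8. The groups overlapped, and the log2 fold change was -0.02 by the quasi-likelihood test in edgeR (standard error, SE, 0.13; adjusted p = 0.924). The level of HDAC8 therefore could not check the labels, and whether plasmid reads were counted on this gene was not given in the sources used here. Every direction below is that of the libraries labelled HDAC8 over the libraries labelled EV. Library totals ranged from 20850018 to 29822917 counts, so that 3 counts, taken as the floor of detection, stood for 0.102 to 0.148 CPM, a figure that covers counting error only. Of 10 melanocyte lineage markers, 9 reached 1 CPM, and their summed level was 6629 to 7015 CPM in the libraries labelled EV and 7672 to 8190 CPM in those labelled HDAC8. The markers went both ways. PMEL, TYR, SOX10, GPM6B, CDH19 and the low TYRP1 were higher in all 3 libraries labelled HDAC8. DCT, MITF and S100B were lower in all 3, and MLANA overlapped. TYR ranged from 322 to 333 CPM in the libraries labelled EV and from 442 to 455 CPM in those labelled HDAC8, and SOX10 from 631 to 707 and from 765 to 804 CPM. PMEL, which made up most of the sum, ranged from 3983 to 4281 CPM in the libraries labelled EV and from 4999 to 5541 CPM in those labelled HDAC8, while DCT ranged from 226 to 246 and from 66.4 to 70.5 CPM, MITF from 926 to 963 and from 826 to 879 CPM and S100B from 93.7 to 98.5 and from 79.1 to 80.3 CPM. Fibroblast markers, 4 of 8 at 1 CPM, summed to 44.1 to 46.1 and 56.0 to 61.3 CPM, of which LUM alone made up 34.8 to 37.9 and 47.9 to 52.2 CPM. PDGFRA, at 0.836 to 1.67 and 2.07 to 2.41 CPM, was also higher in all 3 libraries labelled HDAC8, while COL1A1 and PDGFRB overlapped between the groups. The sums were 8.31 to 10.1 and 6.29 to 8.83 CPM for keratinocyte markers (1 of 6, KRT1 and DSG3 at 0), 27.1 to 28.1 and 24.1 to 32.0 CPM for leukocyte markers (2 of 6, CD3E at 0) and 3.06 to 3.25 and 3.10 to 3.94 CPM for endothelial markers (1 of 5). The part of these markers in the results below was not tested. In bulk RNA, a change in the share of cells that express a gene and a change in RNA per cell cannot be told apart.

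The antioxidant genes differed in both directions. The extracellular superoxide dismutase SOD3, catalase (CAT) and the glutathione transferase GSTM3 were higher in the libraries labelled HDAC8, and the cystine transporter SLC7A11 was lower, each at an adjusted p below 0.05 and a log2 fold change past 0.58 in size. NFE2L2 itself was not called, and the NRF2 target NQO1 was slightly lower. Of the 53 genes, 48 passed the filter on low counts. By the quasi-likelihood test in edgeR, at an adjusted p below 0.05 and any fold, 18 were higher, against a background of 11.1% of the 16195 genes tested, and 7 were lower, against 11.7%. These were 37.5% and 14.6% of the 48, and 23 genes were not called. With the fold threshold added, 3 were higher and 1 was lower, where 4.07% and 3.45% of all genes tested were called. The 3 libraries labelled HDAC8 were all above the 3 labelled EV for 21 of the 48 genes (18.7% of all genes tested) and all below for 10 (19.4%).

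The genes of the group were more abundant than most, with a median level of 86.6 CPM against 18.8 CPM for all genes tested. Of genes that averaged 10 CPM or more, 18 of the 45 in the group were higher (40.0%) and 7 were lower (15.6%), where 14.1% and 15.8% of the 9780 such genes were called. Their median log2 fold change was 0.115, against -0.003 for the 9780. Most differences were small, with a median absolute log2 fold change of 0.20 in the group and 0.19 over all genes tested. Many of the genes are short. Among the 26 with exon lengths of 3726 bases or less, 13 were higher and 3 were lower, while 14.7% and 11.7% of all such short genes at this level were called. Without EV replicate 3, 4 members were lower in place of 7, and over all genes tested 1312 were lower in place of 1891. The 13 tested members with non-whole counts in any library, where reads were divided between genes, could be affected by near-identical copies. Among the other 35 the counts were 15 higher and 4 lower. Of all 10319 tested genes with whole counts in every library, 1206 were higher and 1334 were lower.

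**Figure D1:**
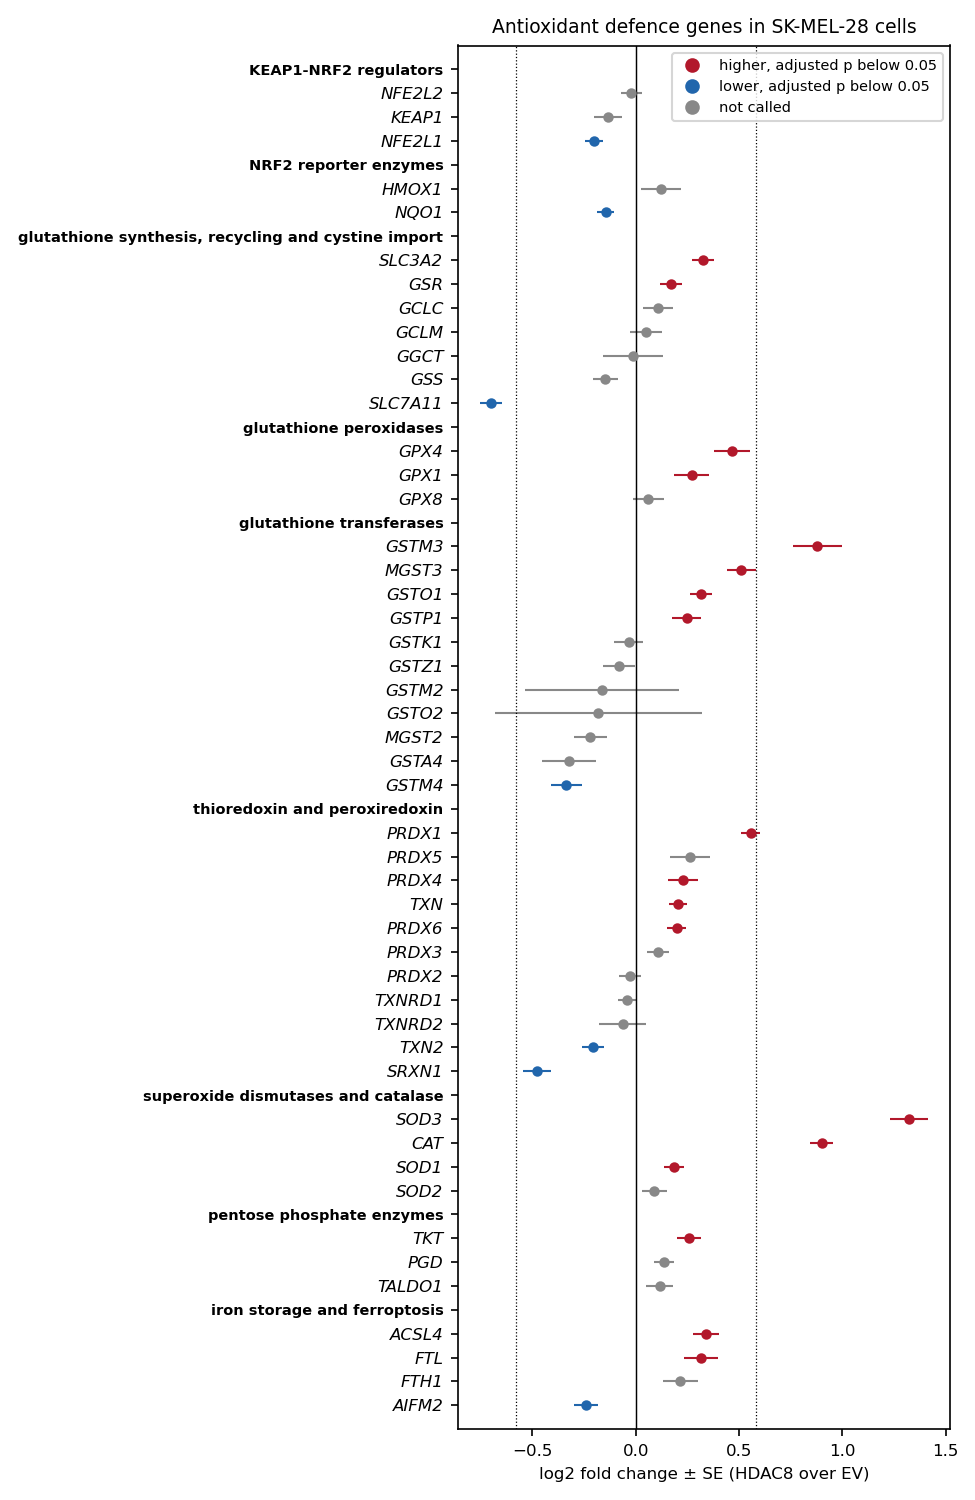
Log2 fold change of the 48 tested antioxidant genes, labelled HDAC8 over labelled EV, by role (points: edgeR estimate; bars: SE; dotted lines: ± 0.58). The 18 higher genes (red), 7 lower genes (blue) and 23 genes not called (grey) share 4 roles, glutathione synthesis, transferases, thioredoxin and iron, with SOD3 at 1.32 and SLC7A11 at -0.70 as the extremes.

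Promoter sequences from RefSeq (GRCh38.p14, 250 bases before to 50 after each start) were matched for 42 of the 53 genes, in 59 windows. Both strands were searched for TGACNNNGC, the core of the antioxidant response element, and for TGANTCA, the AP-1 motif. The antioxidant core was found in 13 of the 59 windows (22.0%) and in 13.3% of the 35116 windows of all genes. The AP-1 motif was found in 3 of the 59 (5.08%) and in 7.71% of all windows. In the same 3 windows, of SLC3A2, GSTP1 and AIFM2, both were joined in the letters TGACTCAGC or their reverse complement, as in 0.561% of all windows. These 3 are shown because SLC3A2 and GSTP1 were higher and AIFM2 was lower. Each sequence reads along the gene's own strand, with the match in capitals.
SLC3A2: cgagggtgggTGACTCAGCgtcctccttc
GSTP1: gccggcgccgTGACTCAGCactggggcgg
AIFM2: cagcacgagtGCTGAGTCAcgccccgccc
The SLC3A2 window lies at chr11:62881652-62881680 on the plus strand, inside the gene and outside its exons in the GENCODE 44 annotation. That of GSTP1 lies at chr11:67583736-67583764 on the plus strand and that of AIFM2 at chr10:70132829-70132857 on the minus strand, and in both the match touches an exon of the gene. The matches start 37, 66 and 22 bases before the RefSeq starts.

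A separate set is shown to compare called with uncalled genes. GSTO1, which was higher, held 2 matches of the core, and KEAP1, GCLM and TXNRD1, which were not called, held the matches shown for comparison.
GSTO1, first match: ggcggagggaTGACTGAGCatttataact
GSTO1, second match: cgagatgcttTGACACAGCcccttaagat
KEAP1, first match: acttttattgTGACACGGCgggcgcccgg
KEAP1, second match: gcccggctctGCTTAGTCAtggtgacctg
GCLM: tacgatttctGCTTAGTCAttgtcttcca
TXNRD1, first match: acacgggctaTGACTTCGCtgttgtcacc
TXNRD1, second match: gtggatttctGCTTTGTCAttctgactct
The GSTO1 windows lie at chr10:104254656-104254684 and chr10:104254721-104254749 and those of TXNRD1 at chr12:104215670-104215698 and chr12:104286920-104286948, all on the plus strand. The KEAP1 windows lie at chr19:10502807-10502835 and chr19:10502784-10502812 and that of GCLM at chr1:93909446-93909474, on the minus strand. The first GSTO1 match lies inside the gene and outside its exons, the first TXNRD1 match lies before the gene, and the others touch an exon of their gene. TXNRD1 held 3 matches, the one not shown being GCTCCGTCA at its RefSeq start. A match is a run of letters and not a measured binding site. Further matches were found beside GPX2, GSTA4, GSTM1, MGST1 and PGD. No window was matched for HMOX1, GSS, GSR, GGCT, SLC7A11, MGST2, TXN2, PRDX1, PRDX6, SOD1 and FTH1.

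Of the 3 regulators, NFE2L2 was similar in both groups and NFE2L1 was lower. NFE2L2 was measured at 158, 155 and 155 CPM in the libraries labelled EV and at 160, 156 and 145 CPM in those labelled HDAC8. The groups overlapped, and the log2 fold change was -0.02 (SE 0.05, adjusted p = 0.808). All 6 libraries held non-whole counts for NFE2L2. KEAP1 was measured at 41.8, 44.8 and 45.9 CPM and at 41.3, 41.0 and 38.4 CPM. The latter 3 were all lower, though closely, and the log2 fold change of -0.13 (SE 0.07) was not called (adjusted p = 0.188). NFE2L1 encodes NRF1, a related factor that controls proteasome genes, and was measured at 428, 408 and 422 CPM against 354, 376 and 365 CPM. Its groups were apart, with a log2 fold change of -0.20 (SE 0.04, adjusted p = 0.00545, edgeR's quasi-likelihood test). NFE2L1 was the 1 called gene of the 3 regulators, where 14.1% of all genes at 10 CPM or more were higher and 15.8% were lower.

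NQO1, a quinone reductase widely used as a readout of NRF2, was measured at 500, 487 and 490 CPM in the libraries labelled EV and at 451, 449 and 435 CPM in those labelled HDAC8. All 3 of the latter were lower, by a log2 fold change of -0.15 (SE 0.04, adjusted p = 0.0211). The call for NQO1 was lost without EV replicate 1 or EV replicate 3 and with replicate number as a block, with an adjusted p of up to 0.0878. HMOX1, the haem oxygenase that frees iron from haem, was measured at 31.6, 24.1 and 27.6 CPM and at 29.2, 29.7 and 31.7 CPM. The ranges overlapped, and its log2 fold change of 0.12 (SE 0.10) was not called (adjusted p = 0.428). It was 0.03 without EV replicate 2 and 0.22 without EV replicate 1.

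Cystine import divided between its 2 subunits. The antiporter that brings cystine into the cell in exchange for glutamate is made of a light chain, SLC7A11, and a heavy chain, SLC3A2, which also pairs with other amino acid transporters. SLC7A11 (ENSG00000151012, chromosome 4, 138164097 to 138242349, minus strand, GENCODE 44 on GRCh38) was measured at 137, 135 and 133 CPM in the libraries labelled EV and at 86.4, 83.1 and 79.5 CPM in those labelled HDAC8. The groups were far apart, with a log2 fold change of -0.70 (SE 0.05, adjusted p = 1.57e-06, edgeR's quasi-likelihood test), and 1 library held a non-whole count for the gene. SLC3A2 (ENSG00000168003, chromosome 11, 62856004 to 62888880, plus strand) went the other way, at 188, 169 and 180 CPM against 217, 229 and 226 CPM. Its log2 fold change was 0.33 (SE 0.05, adjusted p = 7.02e-04). The CPM of SLC7A11 was 0.732, 0.799 and 0.737 times that of SLC3A2 in the libraries labelled EV and 0.399, 0.363 and 0.351 times in those labelled HDAC8. This ratio and those below were formed after the values were seen and carry no test.

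Glutathione synthesis itself was not called at any step. The catalytic subunit of the first enzyme, GCLC, was measured at 27.7, 29.2 and 26.9 CPM against 30.97, 29.6 and 29.6 CPM. The libraries labelled HDAC8 were all slightly higher, with a log2 fold change of 0.11 (SE 0.07, adjusted p = 0.336). Its modifier subunit, GCLM, was measured at 35.1, 40.2 and 39.3 CPM against 42.2, 39.2 and 37.0 CPM, with overlapping groups (0.05, SE 0.08, adjusted p = 0.715). Glutathione synthetase (GSS) ranged from 92.7 to 104 CPM in the libraries labelled EV and from 85.2 to 93.4 CPM in those labelled HDAC8 (-0.15, adjusted p = 0.107). GGCT, which degrades gamma-glutamyl peptides, ranged from 27.1 to 33.8 CPM and from 23.0 to 35.9 CPM (-0.01, adjusted p = 0.961). Glutathione reductase (GSR), which restores oxidised glutathione with NADPH, was measured at 127, 116 and 120 CPM against 139, 138 and 132 CPM. It was higher by a log2 fold change of 0.17 (SE 0.05, adjusted p = 0.0332), a call lost without EV replicate 2, EV replicate 3, HDAC8 replicate 1 or HDAC8 replicate 2 and with replicate number as a block (adjusted p up to 0.131). In all, 2 of these 7 genes were higher and 1 was lower, where 14.1% and 15.8% of all genes at 10 CPM or more were called.

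Of 6 glutathione peroxidases, 3 were tested and 2 of them were higher, where 14.1% of all genes at 10 CPM or more were higher. GPX4, which reduces lipid peroxides within membranes, was measured at 73.5, 66.6 and 74.5 CPM in the libraries labelled EV and at 99.4, 112 and 85.4 CPM in those labelled HDAC8. The latter were all higher but spread more widely, and the log2 fold change was 0.47 (SE 0.09, adjusted p = 0.00249). GPX1, the main cytosolic peroxidase, was measured at 81.9, 69.4 and 87.9 CPM against 89.6, 95.7 and 104 CPM (0.27, SE 0.08, adjusted p = 0.0381). That call was lost without EV replicate 1, EV replicate 2, HDAC8 replicate 2 or HDAC8 replicate 3 (adjusted p up to 0.142, log2 fold change 0.18 without EV replicate 2), and 2 libraries held non-whole counts for GPX1. GPX8 of the endoplasmic reticulum ranged from 35.8 to 36.8 CPM and from 35.5 to 41.5 CPM, and was not called (0.06, adjusted p = 0.625). The gastrointestinal GPX2, with 0 to 13 counts a library, the plasma enzyme GPX3, with 2 to 13, and GPX7, with 0 to 9, did not pass the filter.

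Among the 13 glutathione transferases, 11 were tested, 4 were higher (36.4%) and 1 was lower (9.09%), where 11.1% and 11.7% of all genes tested were called. GSTM3 (ENSG00000134202, chromosome 1, 109733932 to 109741038, minus strand) was measured at 8.31, 9.04 and 7.36 CPM in the libraries labelled EV and at 15.9, 14.1 and 15.4 CPM in those labelled HDAC8. The groups did not come near each other, with a log2 fold change of 0.88 (SE 0.12, adjusted p = 2.40e-04). GSTM4, which lies in the same cluster of mu class genes (chromosome 1, 109656099 to 109665496, plus strand), was measured at 37.7, 36.3 and 36.5 CPM against 27.7, 31.5 and 28.5 CPM. It was lower by a log2 fold change of -0.34 (SE 0.07, adjusted p = 0.00609), and 2 libraries held non-whole counts for it. The CPM ratio of GSTM3 to GSTM4 was 0.220, 0.249 and 0.202 in the libraries labelled EV and 0.573, 0.447 and 0.541 in those labelled HDAC8. The 2 other mu class genes of the group described here, whose annotated spans overlap, were low and held non-whole counts in 5 libraries each. GSTM2 ranged from 0.839 to 1.49 CPM over the 6 libraries (-0.16, SE 0.37, adjusted p = 0.807), and GSTM1, with 1 to 29 counts a library, did not pass the filter.

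GSTP1, the pi class transferase found in many tumour cells, was measured at 190, 184 and 195 CPM against 225, 250 and 199 CPM. The lowest library labelled HDAC8 lay just above the highest labelled EV, and the log2 fold change was 0.25 (SE 0.07, adjusted p = 0.0270, edgeR's quasi-likelihood test). This call was lost without any 1 of the libraries EV replicates 1, 2 and 3 and HDAC8 replicates 1 and 2, and with replicate number as a block (adjusted p up to 0.125, log2 fold change 0.155 without HDAC8 replicate 2). GSTO1, an omega class enzyme, was measured at 150, 133 and 136 CPM against 176, 174 and 171 CPM (0.32, SE 0.05, adjusted p = 0.00112). The membrane-bound MGST3 was measured at 33.9, 30.2 and 33.0 CPM against 45.0, 48.5 and 45.1 CPM. Its groups were well apart (0.51, SE 0.07, adjusted p = 2.84e-04). Of those not called, GSTA4 (-0.32, adjusted p = 0.100) and MGST2 (-0.22, adjusted p = 0.0692) had all 3 libraries labelled HDAC8 below those labelled EV. GSTK1 (-0.03, adjusted p = 0.787), GSTZ1 (-0.08, adjusted p = 0.514) and GSTO2 (-0.18, adjusted p = 0.847, under 1 CPM) overlapped. MGST1 did not pass the filter, and its counts were 2, 0 and 1 under the EV label and 17, 14 and 2 under the HDAC8 label. The 40 genes nearest to MGST1 on chromosome 12, of those at 10 CPM or more, had a median log2 fold change of 0.66.

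**Figure D2:**
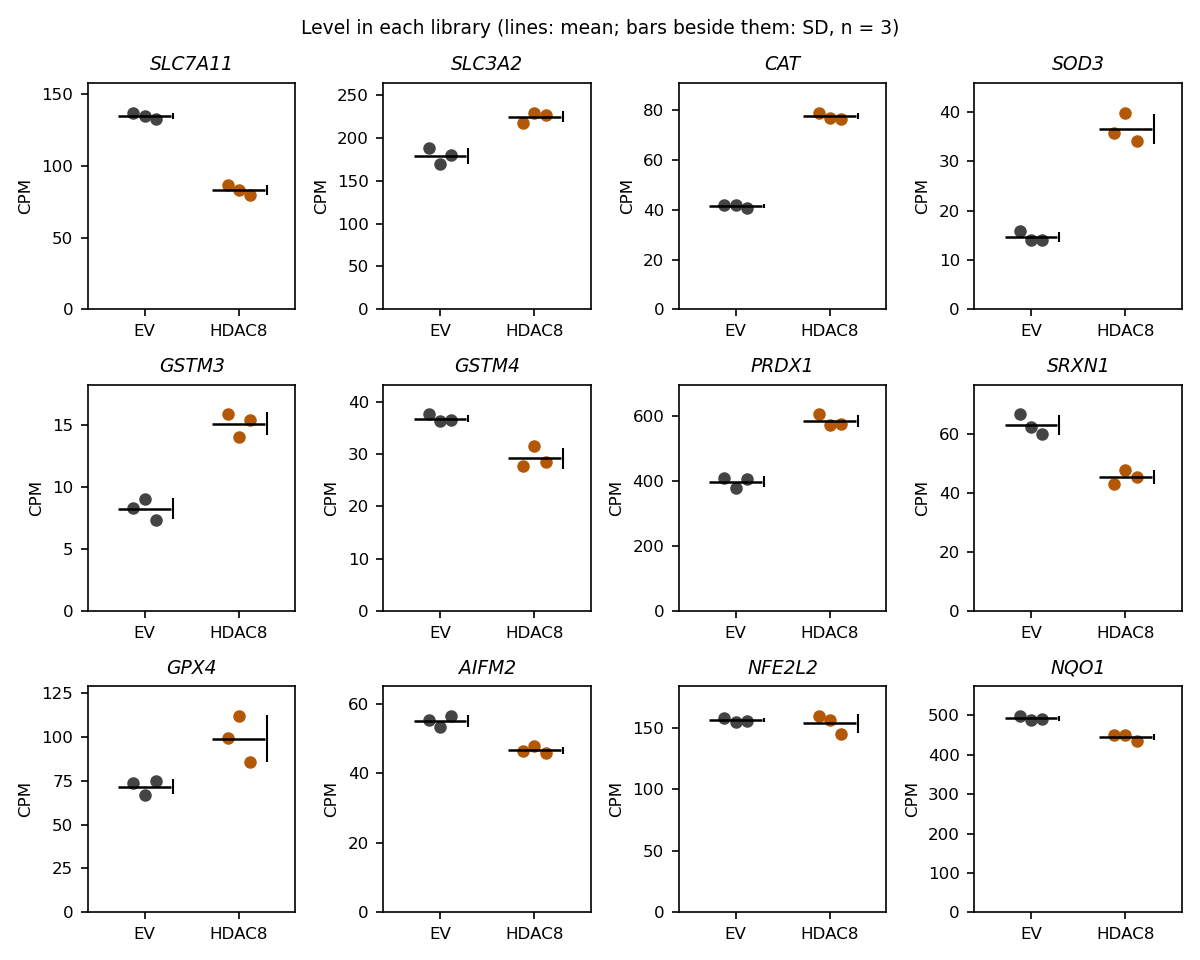
CPM in each library for 12 of the antioxidant genes, EV against HDAC8 labels (points: libraries; lines: means; bars: SD, n = 3; axes start at 0). SLC7A11 and SRXN1 are lower and SLC3A2, CAT, SOD3, GSTM3 and PRDX1 higher in all 3 libraries labelled HDAC8, while those of NFE2L2 overlap.

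In the thioredoxin system, 4 of 11 genes were higher (36.4%) and 2 were lower (18.2%), where 14.1% and 15.8% of all genes at 10 CPM or more were called. Cytosolic thioredoxin (TXN) was measured at 133, 135 and 138 CPM in the libraries labelled EV and at 154, 158 and 155 CPM in those labelled HDAC8. The groups were apart, with a log2 fold change of 0.20 (SE 0.05, adjusted p = 0.00632). Its mitochondrial counterpart TXN2 was measured at 131, 126 and 134 CPM against 118, 108 and 114 CPM (-0.21, SE 0.05, adjusted p = 0.0147). The call for TXN2 was lost without EV replicate 1, EV replicate 3 or HDAC8 replicate 2 (adjusted p up to 0.0795). Cytosolic thioredoxin reductase, TXNRD1, a selenoprotein and NRF2 target, was measured at 210, 201 and 208 CPM against 201, 204 and 197 CPM. These overlapped (-0.04, SE 0.04, adjusted p = 0.545), as did the mitochondrial TXNRD2 at 16.0 to 21.7 CPM over all libraries (-0.06, adjusted p = 0.750).

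PRDX1, a cytosolic peroxiredoxin, was measured at 409, 377 and 405 CPM against 605, 571 and 574 CPM. It had the largest difference of the 6 peroxiredoxins, with a log2 fold change of 0.56 (SE 0.05, adjusted p = 4.66e-06, edgeR's quasi-likelihood test), and all 6 libraries held non-whole counts for it. Sulfiredoxin (SRXN1), which repairs overoxidised peroxiredoxins, went the other way, at 66.7, 62.4 and 59.9 CPM against 43.0, 47.6 and 45.3 CPM. Its log2 fold change was -0.48 (SE 0.07, adjusted p = 2.87e-04). The 27 nearest genes at 10 CPM or more around SRXN1, near the end of chromosome 20, had a median log2 fold change of -0.26, and their part in this result was not tested. The CPM ratio of PRDX1 to SRXN1 was 6.13, 6.04 and 6.75 in the libraries labelled EV and 14.1, 11.99 and 12.7 in those labelled HDAC8. PRDX6, which also acts on phospholipid peroxides, ranged from 156 to 164 CPM and from 179 to 188 CPM (0.20, SE 0.05, adjusted p = 0.00897). PRDX4 of the secretory pathway ranged from 40.0 to 47.5 CPM and from 49.8 to 52.4 CPM (0.23, SE 0.07, adjusted p = 0.0414). The call for PRDX4 was lost without any 1 library other than EV replicate 2, with DESeq2 and with replicate number as a block (adjusted p up to 0.186). PRDX2 (-0.03), the mitochondrial PRDX3 (0.11) and PRDX5 (0.26) had adjusted p values of 0.755, 0.183 and 0.0717, and PRDX5 was called without HDAC8 replicate 3 (adjusted p = 0.00885). Without HDAC8 replicate 2, the log2 fold change of PRDX5 was 0.17 (adjusted p = 0.276).

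Superoxide dismutases turn superoxide into hydrogen peroxide, and catalase removes the peroxide within peroxisomes. Of these 4 genes, 3 were higher and 0 were lower, where 14.1% and 15.8% of all genes at 10 CPM or more were called. SOD3 (ENSG00000109610, chromosome 4, 24789912 to 24800842, plus strand), the secreted dismutase, was measured at 15.8, 13.96 and 14.04 CPM in the libraries labelled EV and at 35.6, 39.8 and 34.0 CPM in those labelled HDAC8. The lowest of the latter was above the highest of the former by a wide margin, with a log2 fold change of 1.32 (SE 0.09, adjusted p = 8.47e-07). CAT (ENSG00000121691, chromosome 11, 34438934 to 34472060, plus strand) was measured at 42.0, 42.0 and 40.6 CPM against 78.9, 76.9 and 76.5 CPM. The spread within groups was small, and the log2 fold change was 0.90 (SE 0.06, adjusted p = 3.33e-07). The 40 nearest genes at 10 CPM or more had median log2 fold changes of -0.003 around SOD3 and -0.07 around CAT. SOD1, the cytosolic copper and zinc enzyme, was measured at 99.4, 99.7 and 99.0 CPM against 113, 117 and 109 CPM. It was higher by a log2 fold change of 0.19 (SE 0.05, adjusted p = 0.0188), a call lost without EV replicate 1, 2 or 3 or HDAC8 replicate 2 (adjusted p up to 0.0974). Mitochondrial SOD2 was measured at 85.8, 81.6 and 94.5 CPM against 91.7, 96.1 and 91.3 CPM, with overlap and non-whole counts in all 6 libraries (0.09, SE 0.06, adjusted p = 0.349).

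The pentose phosphate pathway supplies NADPH to both systems. Transketolase (TKT), of its non-oxidative arm, was measured at 403, 354 and 406 CPM against 442, 475 and 475 CPM. The groups did not overlap, and TKT was the 1 gene called of the 3, with a log2 fold change of 0.26 (SE 0.06, adjusted p = 0.00703). Of all genes at 10 CPM or more, 14.1% were higher and 15.8% were lower. PGD, an NADPH-forming enzyme, ranged from 180 to 193 CPM and from 201 to 210 CPM (0.14, SE 0.05, adjusted p = 0.0571). PGD was called without HDAC8 replicate 3, with upper-quartile normalization and with at least 10 counts in every library (lowest adjusted p = 0.0252). Transaldolase (TALDO1) ranged from 67.4 to 76.4 CPM and from 74.6 to 82.9 CPM (0.12, adjusted p = 0.246).

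Ferritin stores iron in a shell of heavy (FTH1) and light (FTL) chains. FTH1 was measured at 649, 633 and 677 CPM in the libraries labelled EV and at 797, 844 and 633 CPM in those labelled HDAC8. HDAC8 replicate 3, at 632.76 CPM, lay just below the lowest library labelled EV, at 633.32 CPM. The log2 fold change of 0.21 (SE 0.08) was not called (adjusted p = 0.0922). FTH1 was called without HDAC8 replicate 3 (log2 fold change 0.32, adjusted p = 1.34e-04) and with no filter on low counts. Without HDAC8 replicate 2 its log2 fold change was 0.12 (adjusted p = 0.359). All 6 libraries held non-whole counts for it. FTL was measured at 346, 329 and 360 CPM against 412, 496 and 381 CPM. All 3 libraries labelled HDAC8 were higher, by a log2 fold change of 0.32 (SE 0.08, adjusted p = 0.0143), a call lost without EV replicate 1 or EV replicate 2 and with DESeq2 (adjusted p up to 0.0713). Without HDAC8 replicate 2, the log2 fold change of FTL was 0.19.

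ACSL4 is known to promote ferroptosis, while AIFM2 and GPX4 are both known to oppose it. ACSL4, which activates the polyunsaturated fatty acids that become peroxidised, was measured at 145, 140 and 145 CPM against 192, 189 and 163 CPM. It was higher by a log2 fold change of 0.34 (SE 0.06, adjusted p = 0.00201). AIFM2, also named FSP1, which reduces coenzyme Q and protects membrane lipids apart from glutathione, was measured at 55.5, 53.3 and 56.7 CPM against 46.3, 47.9 and 45.8 CPM. Its groups were apart, with a log2 fold change of -0.24 (SE 0.06, adjusted p = 0.0120), although the call was lost without EV replicate 3 (adjusted p = 0.0627). The CPM ratio of GPX4 to AIFM2 was 1.33, 1.25 and 1.32 in the libraries labelled EV and 2.14, 2.34 and 1.86 in those labelled HDAC8.

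Levels were compared between genes only per length, as mean CPM per kilobase of annotated exon. In the libraries labelled EV the order was led by FTL at 396, FTH1 at 326, PRDX1 at 236, NQO1 at 166, TXN at 134 and GSTP1 at 107 CPM per kilobase. In those labelled HDAC8, FTL was at 493, FTH1 at 378, PRDX1 at 347, TXN at 154, NQO1 at 150 and GSTP1 at 127, so that TXN and NQO1 changed places by a small margin. SLC7A11 went from 13.99 to 8.61, CAT from 11.6 to 21.6 and SOD3 from 7.23 to 18.1 CPM per kilobase. GCLC, at 3.24 and 3.49, was below its partner GCLM, at 7.04 and 7.28. The ID of SOD2 had no match in the annotation, and so no length.

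**Figure D3:**
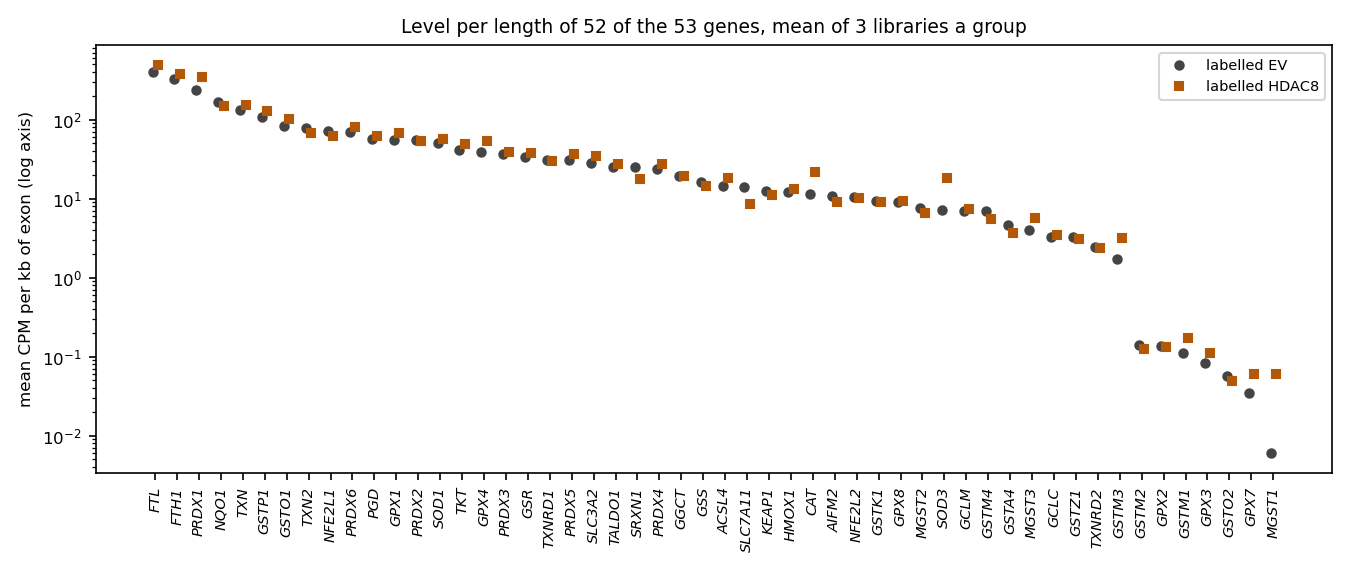
Mean CPM per kilobase of exon (log axis) for the 52 antioxidant genes with a known length, by level in the libraries labelled EV (circles: labelled EV; squares: labelled HDAC8; means of 3 libraries). FTL, FTH1 and PRDX1 lead in both groups, the 7 genes at the right end lie at 0.172 or less, and CAT, SOD3 and SLC7A11 stand apart from their own circles.

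Genes around the group were taken from 7 further lists of 181 genes in all, of which 142 were tested, 25 were higher (17.6%) and 19 were lower (13.4%), beside 11.1% and 11.7% of all genes tested. At a mean of 10 CPM or more, 17.5% of 120 list genes were higher and 14.2% were lower, near the 14.1% and 15.8% of all such genes. Without EV replicate 3 these counts were 16 and 10, and without EV replicate 1 11 genes were lower. Among 16 partners and regulators of NRF2, 1 was higher and 1 was lower. BACH2, a repressor related to BACH1, went from 3.45 ± 0.245 CPM (SD, n = 3) under the EV label to 6.32 ± 0.242 CPM under the HDAC8 label (log2 fold change 0.87, adjusted p = 0.00392, edgeR's quasi-likelihood test). The kinase GSK3B, which also promotes the degradation of NRF2, went from 138 ± 3.55 to 105 ± 1.83 CPM (-0.39, adjusted p = 1.11e-04). The median of that list was -0.02, beside 0.009 over all genes tested.

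Of 20 further NRF2 targets tested, 6 were higher (30%) and 5 were lower (25%), where 14.1% and 15.8% of all genes at 10 CPM or more were called, and the median was 0.06. The carbonyl reductase CBR1 (0.45, adjusted p = 0.00140) and the exporter ABCC2 (0.44, adjusted p = 3.72e-04) were highest. The related reductase CBR3 (-0.43, adjusted p = 0.00727) and exporter ABCC5 (-0.43, adjusted p = 5.51e-04) were lowest, and CBR3 held non-whole counts in all 6 libraries.

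Of 26 other genes of glutathione metabolism (median 0.09), 5 were higher (19.2%) and 3 were lower (11.5%), beside 11.1% and 11.7% of all genes tested. Glutaredoxin (GLRX), which removes glutathione from proteins, rose from 9.22 ± 0.832 to 16.7 ± 1.21 CPM (SD, n = 3, 0.86, adjusted p = 1.97e-04), and the mitochondrial GLRX5 was also higher (0.35, adjusted p = 0.0325). GLRX5 held non-whole counts in 5 libraries and lost its call without EV replicate 1, EV replicate 3 or HDAC8 replicate 1, with DESeq2 and with replicate number as a block (adjusted p up to 0.149). PTGES, a prostaglandin E synthase that uses glutathione, fell from 3.48 ± 0.211 to 1.73 ± 0.0715 CPM (-1.01, adjusted p = 0.0122), and the cysteine and glutamate carrier SLC1A1 was lower by a log2 fold change of -0.40 (adjusted p = 0.0131), a call lost without EV replicate 1 (adjusted p = 0.0737).

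Among 29 other genes of the thioredoxin, selenoprotein and repair systems (median 0.04), 5 were higher and 5 were lower (17.2% each). Of all genes tested, 11.1% were higher and 11.7% were lower. SELENOM, a selenoprotein of the endoplasmic reticulum, had 10, 12 and 10 counts under the EV label against 84, 75 and 65 counts under the HDAC8 label, with no overlap. Its log2 fold change was 2.71 (SE 0.34, adjusted p = 1.24e-04). The methionine sulfoxide reductase MSRB2 was higher (0.40, adjusted p = 0.0161), and the sestrin SESN3 (-0.47, adjusted p = 1.92e-05) and TXNDC17 (-0.38, adjusted p = 0.0414) were lower. TXNDC17 held non-whole counts in all 6 libraries and lost its call without any 1 library other than HDAC8 replicate 2 (adjusted p up to 0.135). MSRB2 lost its call without EV replicate 1, EV replicate 3, HDAC8 replicate 1 or HDAC8 replicate 2 and with DESeq2 (adjusted p up to 0.0605).

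Of 27 further ferroptosis and iron genes (median 0.003), 4 were higher and 4 were lower (14.8% each), beside 11.1% and 11.7% of all genes tested. The iron chaperone PCBP2 (0.35, adjusted p = 1.21e-04) and ACSL3, which activates monounsaturated fatty acids (0.28, adjusted p = 0.00109), were highest, and PCBP2 held non-whole counts in all 6 libraries. The metal importer SLC39A14 went from 281 ± 6.08 to 195 ± 1.85 CPM (SD, n = 3, -0.53, adjusted p = 3.44e-06), and the heat shock protein HSPB1 was lower by a log2 fold change of -0.26 (adjusted p = 0.0178), a call lost without EV replicate 1 or EV replicate 3 (adjusted p up to 0.103). Of 16 other genes of the pentose phosphate pathway and NADPH supply (median 0.04), 3 were higher (18.8%) and 0 were lower, beside 11.1% and 11.7% of all genes tested. The highest were TKTL1, at 10 to 32 counts against 52 to 90 (1.45, adjusted p = 0.0215), and H6PD (0.29, adjusted p = 0.00426). Of 8 tested oxidant sources, the monoamine oxidase MAOA was higher (0.73, adjusted p = 0.0212) and the oxidase ERO1B was lower (-0.65, adjusted p = 0.0223). That list has 20 genes, and of the 8 tested 12.5% were higher and 12.5% were lower, beside 11.1% and 11.7% of all genes tested. The calls for TKTL1, MAOA and ERO1B were not firm. Each was lost when any 1 of several libraries was left out, which were EV replicate 2, EV replicate 3, HDAC8 replicate 1 and HDAC8 replicate 2 for TKTL1 (adjusted p up to 0.0754), EV replicate 1, EV replicate 2 and HDAC8 replicate 2 for MAOA (up to 0.0974), and EV replicate 2, EV replicate 3 and HDAC8 replicate 1 for ERO1B (up to 0.0727).

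**Figure D4:**
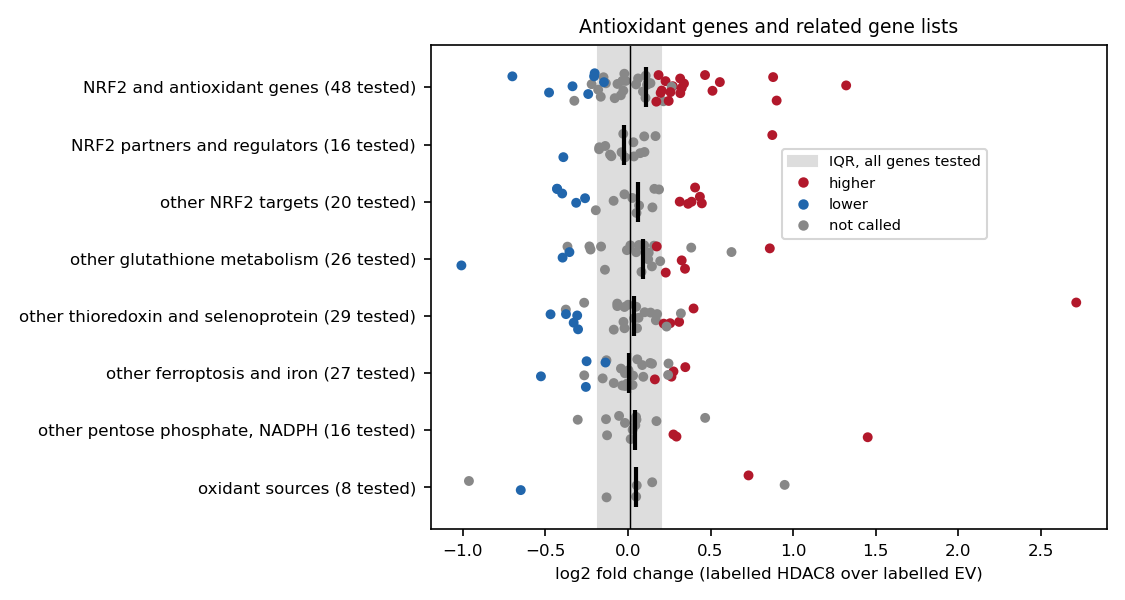
Log2 fold change of each tested gene in the antioxidant group and in the 7 related lists (points, shifted vertically for clarity; red: higher; blue: lower; grey: not called), with each median as a black bar, the median of all genes tested as a line and their interquartile range as a grey band. The medians lie between -0.02 and 0.107, inside the band, and SELENOM lies farthest out at 2.71.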

How the data were processed

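The table that the authors deposited holds estimated counts by Ensembl gene for 6 RNA-seq libraries of SK-MEL-28 cells, without normalization. Their Methods and processing notes name Trimmomatic, STAR, RSEM, DESeq2 and the GRCh38 build. The annotation release and the strand setting are not given in the sources used here. The labels name the Aurum kit, ribosomal RNA depletion and a directional NEBNext preparation, whereas the Methods name other kits. RSEM divides reads between similar genes, so near-identical copies make some counts non-whole. A second deposited table, of log2 fold changes, p-values and group values, was not used.

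Counts were rounded, and 16195 genes passed filterByExpr in edgeR 4.0.16 (R 4.3.3). They were fitted with TMM normalization and glmQLFit and tested with glmQLFTest, without a block, and p-values were adjusted over all genes tested (Benjamini-Hochberg). A call required an adjusted p below 0.05, and both thresholds also an absolute log2 fold change of 0.58. SE was taken as the size of the log2 fold change over the root of the F statistic. CPM used TMM-scaled library sizes. Gene positions and union exon lengths were from GENCODE 44. Groups were read from the sample labels. DESeq2 1.42.0, another normalization, filters, unrounded counts, the replicate number as a block and each library left out were alternatives. The scripts were tested on simulated data. The members and lists were chosen with earlier results of these data known. Values of each library are given for members past both thresholds and for 20 listed members, and, chosen after their values were seen, for SLC3A2, GSR, GPX1, GSTM4, GSTO1, MGST3, TXN, TXN2, SRXN1 and MGST1. The 2 highest and 2 lowest called genes were named from each related list. 1 listed symbol, GSTT1, had no match. 1 further gene of the related lists is counted but not reported here by name.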

Additional observations from a re-analysis of the deposited data

How the results depend on the processing

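In 12 alternative settings, 16 of the 25 called members kept their call in every one and 9 lost it in at least 1, and 0 of the 25 changed sign. With the replicate number as a block, a fit in which 15 members were higher and 6 were lower (18 and 7 without the replicate block), the calls of GSR, GSTP1, NQO1 and PRDX4 were lost. Of the 16195 genes tested, 1496 were higher and 1587 were lower with the block, and 1790 and 1891 without it. Same-numbered libraries correlated at -0.0418, -0.107 and -0.0835 in their deviations from the group means, so the numbers gave no sign of pairing. With each library left out in turn, 13 to 20 members were higher and 4 to 7 were lower, and in the related lists 16 to 25 genes were higher and 10 to 23 were lower. Over all genes tested, 1270 to 1999 were higher and 1289 to 2119 were lower in the same fits. The members past both thresholds were 3 to 4 higher and 1 lower in these fits. Among members with whole counts in every library, an alternative chosen after seeing the data, 4 were lower and 0 were lower at both thresholds, since SLC7A11 is left out there by 1 non-whole count. Of the 23 uncalled members, 7 changed sign, each when 1 library was left out. The log2 fold change then ranged from -0.057 to 0.010 for NFE2L2, from -0.009 to 0.085 for GCLM, from -0.149 to 0.149 for GGCT, from -0.017 to 0.095 for GPX8, from -0.076 to 0.007 for GSTK1, from -0.461 to 0.071 for GSTO2 and from -0.165 to 0.037 for TXNRD2. Without a change of sign, SOD2 ranged from 0.042 to 0.151 and TALDO1 from 0.063 to 0.152. The cause of these shifts was not tested. Replicates of a group differed by more than sampling noise, with a chi-square per degree of freedom of 4.53 to 17.2, and the highest values were those of HDAC8 replicate 3. GPX2, GPX3, GPX7, GSTM1 and MGST1 did not pass the filter on low counts in the main fit. With no filter, all 53 members were tested, of which 21 were higher, 7 were lower and 4 were higher at both thresholds. Of the 30137 genes tested in that fit, 2021 were higher, 2127 were lower and 846 were higher at both thresholds.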
